A study of Mus musculus with 6 samples.

Results

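The 10 genes described here encode enzymes and subunits that add methyl groups to, or remove them from, lysines 4 and 27 of histone H3. They were chosen by name and matched by Ensembl ID to GENCODE M21 (GRCm38, the assembly of mm10). All 10 were found among the 54532 genes of the files, and all 10 were among the 14008 genes with enough reads to be tested. The counts come from total RNA of mouse embryo heads at embryonic day 8.5, with 3 mutant pools and 3 wild-type pools of 3 heads each. In the mutant group Sf3b4, which encodes a subunit of the SF3B splicing complex, was deleted in neural crest cells; the other group is labelled wild type. The sample titles call the mutants homozygous nulls, whereas the genotype entries call them neural crest mutants. The sources used here do not give the Cre driver, the strain or the litters, and heads were collected before any change of form was seen.

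Methylation of lysine 4 of histone H3 (H3K4) marks active promoters and enhancers, and trimethylation of lysine 27 (H3K27) marks genes kept silent by Polycomb proteins. KMT2A and KMT2B methylate H3K4 at promoters, KMT2C and KMT2D mainly at enhancers, and SETD1A and SETD1B carry out much of the genome-wide H3K4 trimethylation. KDM6A and KDM6B remove methyl groups from H3K27; KDM6A is also a subunit of the KMT2C and KMT2D complexes. EZH2 is the H3K27 methylase of Polycomb repressive complex 2 (PRC2), and SUZ12 is a core subunit of it. In humans, variants in KMT2D and KDM6A cause Kabuki syndrome, which affects the face, and Kmt2d and Kdm6a have been studied in mouse neural crest.

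Promoter sequences from RefSeq (GRCm38.p6, 250 bases before to 50 after the start site) were held for 7 of the 10 genes. The promoters of 2 H3K4 methylases that were lower in the mutant pools and of the 2 PRC2 genes, which did not pass the test, are shown to set these groups side by side. Capitals mark the GC box GGGCGG and the CCAAT box, searched on both strands together with CACGTG; no matches overlap in these 4 windows. The Kmt2a window is chr9:44881240-44881539, minus strand, that of Kmt2d is chr15:98871156-98871455, minus strand, that of Ezh2 is chr6:47594981-47595280, minus strand, and that of Suz12 is chr11:79992856-79993155, plus strand.
Kmt2a: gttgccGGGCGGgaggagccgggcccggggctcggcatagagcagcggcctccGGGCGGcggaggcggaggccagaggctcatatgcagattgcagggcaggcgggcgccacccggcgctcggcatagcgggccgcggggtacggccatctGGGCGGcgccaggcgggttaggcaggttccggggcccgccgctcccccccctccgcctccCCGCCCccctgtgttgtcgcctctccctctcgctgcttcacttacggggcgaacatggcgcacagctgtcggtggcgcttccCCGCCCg
Kmt2d: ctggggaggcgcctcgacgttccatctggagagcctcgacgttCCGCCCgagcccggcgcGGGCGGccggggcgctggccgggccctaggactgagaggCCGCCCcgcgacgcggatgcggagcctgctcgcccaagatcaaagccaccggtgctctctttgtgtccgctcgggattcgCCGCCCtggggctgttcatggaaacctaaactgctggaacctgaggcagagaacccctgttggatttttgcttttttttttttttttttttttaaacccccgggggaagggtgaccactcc
Ezh2: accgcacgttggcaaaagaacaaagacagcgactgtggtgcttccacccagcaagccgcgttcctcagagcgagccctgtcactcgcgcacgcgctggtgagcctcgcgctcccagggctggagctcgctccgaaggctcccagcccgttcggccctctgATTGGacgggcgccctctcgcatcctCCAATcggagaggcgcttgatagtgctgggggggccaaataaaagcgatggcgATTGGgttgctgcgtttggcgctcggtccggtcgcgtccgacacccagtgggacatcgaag
Suz12: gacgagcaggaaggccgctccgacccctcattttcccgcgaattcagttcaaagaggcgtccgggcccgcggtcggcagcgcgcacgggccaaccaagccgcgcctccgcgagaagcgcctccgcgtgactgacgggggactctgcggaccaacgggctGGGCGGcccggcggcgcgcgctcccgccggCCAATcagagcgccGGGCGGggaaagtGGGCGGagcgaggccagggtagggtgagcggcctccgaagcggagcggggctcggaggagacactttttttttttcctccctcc

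The Kmt2a window held 5 GC boxes and that of Kmt2d 4, and neither held a CCAAT box. The Ezh2 window held 3 CCAAT boxes and no GC box, and that of Suz12 held 1 CCAAT box and 3 GC boxes. Of 32851 mouse promoter windows of the same length, 35.7% hold a GC box and 37.4% a CCAAT box. CpG pairs numbered 36 in Kmt2a, 27 in Kmt2d, 31 in Ezh2 and 41 in Suz12, against a median of 7 and an upper quartile of 20 over all windows. The other windows followed no single pattern: Kmt2c held 12 GC boxes, of which 3 pairs of matches overlap, and Setd1a held none of the 3 motifs. These matches describe the letters only; binding was not measured.

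Kdm6a on the X chromosome has a relative on the Y chromosome, Uty, and the stretch of their promoters that is most alike is shown because the share of Uty in this pair depends on the sex of the embryos in a pool. Capitals mark letters identical between the genes in the best ungapped window of 50 bases, in which 37 match. The Kdm6a window is chrX:18162504-18162553, plus strand, and that of Uty is chrY:1245779-1245828, minus strand.
Kdm6a: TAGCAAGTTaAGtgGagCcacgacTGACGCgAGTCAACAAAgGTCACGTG
Uty: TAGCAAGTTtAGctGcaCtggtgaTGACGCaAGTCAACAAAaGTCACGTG

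Both stretches end in CACGTG, the E-box palindrome, which 7.15% of all promoter windows hold. They begin 71 and 69 bases before the annotated start sites of Kdm6a and Uty.

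The pools held 7420956 to 12251910 counts in the mutant group and 6930827 to 11797020 in the wild-type group. Levels are given in CPM, the count of a gene relative to its library's size after TMM normalisation. The level of Sf3b4 (ENSMUSG00000068856, chromosome 3, 96172332 to 96177564, plus strand) was 56.1, 64.2 and 60.9 CPM in the mutant pools and 77.7, 72.8 and 63.9 CPM in the wild-type pools. Its log2 fold change was -0.24 (SE 0.0918), with an adjusted p of 0.128 by edgeR's quasi-likelihood test, and the pools of the genotypes overlapped. Without wild-type replicate 3 it was -0.32 (adjusted p = 0.0288 by edgeR), and with trends over exon length and GC content removed it was -0.26 (adjusted p = 0.0459 by edgeR). A count for the whole gene cannot tell deleted exons from intact ones, and crest cells are only part of a head. All 8 neural tube markers, all 9 neural crest markers and all 6 head mesoderm markers on the lists used here were detected and tested. The crest markers summed to 266 to 313 CPM in the mutant pools and to 392 to 430 CPM in the wild-type pools. All 9 had a negative log2 fold change. Of these, 6 were called lower (adjusted p under 0.05 by edgeR), against 3.88% of all tested genes. Surface ectoderm markers summed to 494 to 552 CPM in the mutant pools and to 401 to 442 CPM in the wild-type pools. The part of these cell type differences in the results on the regulators was not tested. In bulk tissue, fewer cells of a type and less RNA per cell cannot be told apart. Summed over 4 genes of the Y chromosome, mutant replicate 3 and wild-type replicate 1 held 1 read apiece, and the remaining pools held 344 to 664.

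All 10 regulators had a lower mean in the mutant pools, and 4 passed the test: Kdm6b, Setd1b, Kmt2a and Kmt2d fell, and none rose. Falls of this kind were called in 3.88% of all tested genes and rises in 2.65%, together 6.52% (edgeR's two-sided quasi-likelihood test, with a Benjamini-Hochberg adjusted p under 0.05 over all tested genes). At an unadjusted p under 0.05, 7 of the 10 were lower and 0 higher; DESeq2 called 5 lower and limma-voom 3, and neither called any higher. In 8 of the 10 genes every mutant pool lay below every wild-type pool, an arrangement seen in 14.4% of all tested genes. The median log2 fold change was -0.32, against 0.00 over all tested genes. The genes were chosen with earlier results of these data known, so these counts are a description. Most calls were not kept when some single pools were left out. Leaving out a pool also lowers the power of the test, and the part of this in the lost calls was not tested. Without mutant replicate 1, mutant replicate 3, wild-type replicate 1 or wild-type replicate 2, only Kdm6b was still called; without mutant replicate 2 there were 5 calls and without wild-type replicate 3 there were 6. In the 4 pools with Y-linked reads, again only Kdm6b was called, and the median of the 10 was -0.24.

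**Figure D1:**
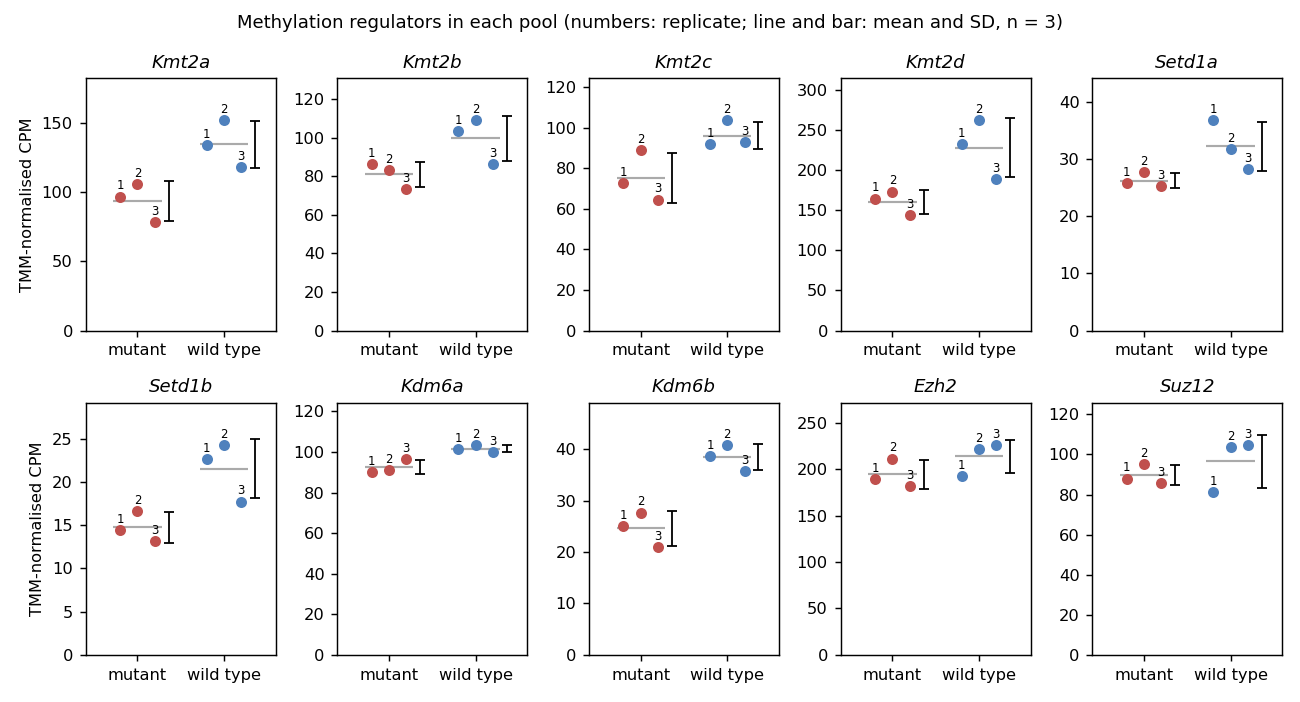
TMM-normalised CPM of the 10 regulators in each pool, mutant on the left and wild type on the right; points are pools numbered by replicate, and the line and bar give the mean and SD (n = 3). In 8 panels every mutant point lies below every wild-type point, whereas in Ezh2 and Suz12 the groups overlap.

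Of the H3K4 methylases, Kmt2a (ENSMUSG00000002028, chromosome 9, 44803355 to 44881296, minus strand) was read at 96.8, 105.9 and 78.1 CPM in the mutant pools and at 133.7, 151.7 and 118.1 CPM in the wild-type pools. The groups did not overlap, and mutant replicate 3 was the lowest of all. The means were 93.6 ± 14.1 CPM in mutant and 134.5 ± 16.8 CPM in wild-type heads (SD, n = 3 each), which gave a log2 fold change of -0.52 (SE 0.115, adjusted p = 0.0224 by edgeR). Kmt2d (ENSMUSG00000048154, chromosome 15, 98831669 to 98871204, minus strand), the most strongly read methylase of the group, stood at 164.4, 173.1 and 143.5 CPM in the mutant pools and at 232.3, 261.6 and 189 CPM in the wild-type pools. Wild-type replicate 3 was the wild-type pool nearest to the mutants for this gene. Its log2 fold change was -0.50 (SE 0.111, adjusted p = 0.0207 by edgeR). With mutant replicate 1, mutant replicate 3, wild-type replicate 1 or wild-type replicate 2 left out, the adjusted p of Kmt2a by edgeR was 0.0614 to 0.0832 and that of Kmt2d 0.0743 to 0.0958, with log2 fold changes from -0.54 to -0.39.

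Setd1b (ENSMUSG00000038384, chromosome 5, 123142193 to 123168629, plus strand), the least read gene of the 10, had 14.4, 16.6 and 13.1 CPM in the mutant pools and 22.6, 24.3 and 17.7 CPM in the wild-type pools. It fell by 0.53 on the log2 scale (SE 0.137, adjusted p = 0.0306 by edgeR), and again wild-type replicate 3 was nearest to the mutant pools. Leaving out either of mutant replicates 1 and 3 or of wild-type replicates 1 and 2 ended this call (log2 fold change -0.51 to -0.44, adjusted p 0.062 to 0.138 by edgeR). Its paralog Setd1a (ENSMUSG00000042308, chromosome 7, 127776670 to 127800122, plus strand) had 25.8, 27.7 and 25.2 CPM in the mutant pools and 36.7, 31.6 and 28.2 CPM in the wild-type pools. The groups were separate by a narrow margin and the test was not passed (log2 fold change -0.29, SE 0.11, adjusted p = 0.126 by edgeR), although it was without wild-type replicate 3 (-0.39, adjusted p = 0.0286 by edgeR). An annotated same-strand gene, Gm49388, shares 51.8% of the exonic bases of Setd1a and has 0 counts in every pool, so the value of Setd1a depends on how shared reads were assigned.

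Kmt2b and Kmt2c did not pass the test. Kmt2b (ENSMUSG00000006307, chromosome 7, 30568858 to 30588726, minus strand) had 86.3, 83.0 and 73.4 CPM in the mutant pools and 103.4, 108.9 and 86.4 CPM in the wild-type pools, with mutant replicate 1 almost level with wild-type replicate 3. Its log2 fold change was -0.29 (SE 0.094, adjusted p = 0.077 by edgeR), and without wild-type replicate 3 it was -0.39 (adjusted p = 0.01 by edgeR). Kmt2c (ENSMUSG00000038056, chromosome 5, 25271798 to 25498783, minus strand) had 72.6, 88.7 and 64.5 CPM in the mutant pools and 91.8, 103.5 and 92.9 CPM in the wild-type pools. Here the wild-type pools stood close together and mutant replicate 2 approached them; the log2 fold change was -0.35 (SE 0.103, adjusted p = 0.0612 by edgeR), and without mutant replicate 2 it was -0.47 (adjusted p = 0.0198 by edgeR). Thus 3 of the 6 methylases were called lower, and all 6 had negative fold changes and non-overlapping groups. Over all tested genes, 3.88% were called lower, and 14.4% had every mutant pool below every wild-type pool. In the fifth of genes longest by exon length, which holds all of these methylases but Setd1a, the shares were 10.4% and 27.8%. Between the pools without Y-linked reads (1 of each genotype) the mutant to wild-type log2 ratio ran from -0.78 for Setd1b to -0.49 for Kmt2b. Between those with them (2 of each) it ran from -0.44 for Setd1b to -0.16 for Setd1a. Because the groups did not overlap, a negative sign in both was bound to follow for all 6 methylases and is no further evidence. Their counts summed to 460.3, 495 and 397.9 CPM in the mutant pools and to 620.6, 681.8 and 532.2 CPM in the wild-type pools.

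Of the H3K27 demethylases, Kdm6b (ENSMUSG00000018476, chromosome 11, 69398508 to 69413675, minus strand), also known as JMJD3, showed the largest fold change of the 10. It had 25.0, 27.7 and 20.99 CPM in the mutant pools and 38.6, 40.8 and 35.7 CPM in the wild-type pools, a clear gap. The means were 24.6 ± 3.37 CPM in mutant and 38.4 ± 2.55 CPM in wild-type heads (SD, n = 3 each), and the log2 fold change was -0.63 (SE 0.109, adjusted p = 0.00288 by edgeR). An opposite-strand transcript, Kdm6bos, overlaps 4.11% of its exonic bases. Kdm6b is the only gene of the 10 whose call held in all 20 alternatives tried, with log2 fold changes from -0.72 to -0.51.

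Kdm6a (ENSMUSG00000037369, chromosome X, 18162575 to 18279936, plus strand), also known as UTX, had a smaller fold change. It had 90.0, 90.9 and 96.6 CPM in the mutant pools and 101.2, 103.5 and 99.99 CPM in the wild-type pools. The groups were separate and each was tight, but the log2 fold change of -0.14 (SE 0.0721) did not pass the test (adjusted p = 0.276 by edgeR). Within a pool, the ratio of Kdm6b to Kdm6a counts, which no scaling factor affects, was 0.278, 0.304 and 0.217 in the mutant pools and 0.382, 0.394 and 0.358 in the wild-type pools. The ratio was lower in every mutant pool than in any wild-type pool. Kdm6b (59.6% GC) and Kdm6a (42.5% GC) differ in base composition, and a trend over GC content stays in this ratio.

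Because Kdm6a has an active copy on each X chromosome in female cells, its level is read beside that of Uty (chromosome Y, 1096861 to 1245759, minus strand). Uty had 159, 126 and 1 counts in the mutant pools and 0, 85 and 176 counts in the wild-type pools, so mutant replicate 3 and wild-type replicate 1 held practically no Y-linked RNA. The Kdm6a level of mutant replicate 3 was the highest of the mutant pools, while that of wild-type replicate 1 lay between the other wild-type pools. Kdm6a and Uty together came to 103.1, 104.2 and 96.7 CPM in the mutant pools and to 101.2, 115.6 and 115.1 CPM in the wild-type pools, and these sums overlap. Uty made up 12.7%, 12.7% and 0.14% of the sum in the mutant pools and 0%, 10.4% and 13.2% in the wild-type pools. Between the pools without Y-linked reads, the log2 ratio of mutant to wild type was -0.07 for Kdm6a and -0.88 for Kdm6b, and between those with them it was -0.17 and -0.54. Xist, the RNA of the inactive X chromosome, ran from 213 to 365.5 CPM in the mutant pools and from 263.5 to 634.7 CPM in the wild-type pools, and was present in every pool.

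**Figure D2:**
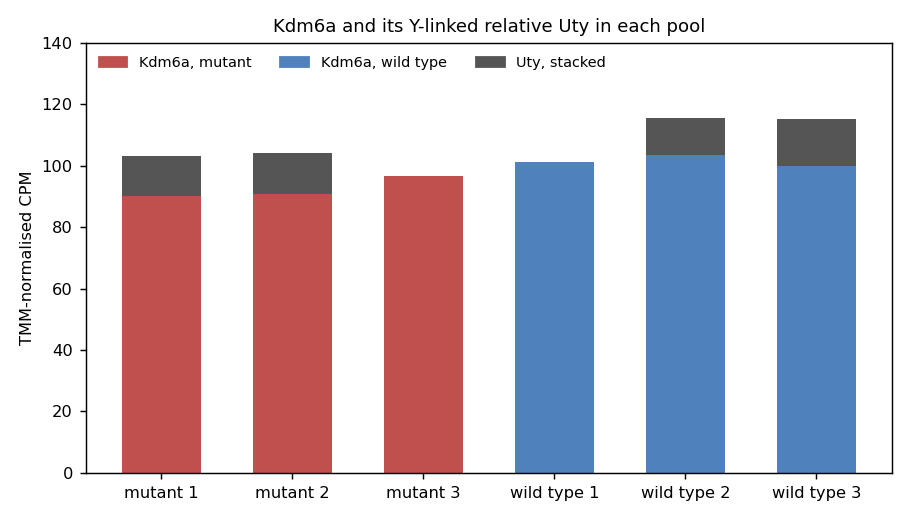
Stacked TMM-normalised CPM of Kdm6a (coloured by genotype) and Uty (dark grey) in each pool, mutant pools on the left. Uty is nearly absent from mutant replicate 3 and wild-type replicate 1, and the sum of the pair is highest in wild-type replicates 2 and 3.

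The PRC2 genes did not pass the test, and their groups overlapped. Ezh2 (ENSMUSG00000029687, chromosome 6, 47530139 to 47595341, minus strand) had 189.6, 211.3 and 181.6 CPM in the mutant pools and 192.7, 221.8 and 226.1 CPM in the wild-type pools. Its log2 fold change was -0.14 (SE 0.0834, adjusted p = 0.347 by edgeR). Suz12 (ENSMUSG00000017548, chromosome 11, 79993106 to 80034123, plus strand) had 87.9, 95.1 and 85.6 CPM in the mutant pools and 81.4, 103.5 and 104.8 CPM in the wild-type pools, with wild-type replicate 1 the lowest of all. Its log2 fold change was -0.11 (SE 0.0952, adjusted p = 0.538 by edgeR). These misses do not show that the levels are equal. Between the pools without Y-linked reads the log2 ratio of mutant to wild type was 0.07 for Suz12 and -0.09 for Ezh2, and between those with them it was -0.19 and -0.16, so the direction of Suz12 was not the same in both.

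Ratios of raw counts within a pool need no scaling factor, and that of Kmt2a to Ezh2 separated the genotypes. A trend over exon length stays in such ratios, as Kmt2a has 16670 exonic bases and Ezh2 6678. The Kdm6b to Ezh2 ratio also separated the genotypes. That of Kmt2c to Ezh2 did not, with 0.420 in mutant replicate 2 and 0.411 in wild-type replicate 3. The Kmt2a to Ezh2 count ratio was 0.510, 0.501 and 0.430 in the mutant pools and 0.694, 0.684 and 0.522 in the wild-type pools. For Kmt2d to Ezh2 it was 0.867, 0.819 and 0.790 in the mutant pools and 1.21, 1.18 and 0.836 in the wild-type pools, so there the groups overlap, through wild-type replicate 3. Suz12 to Ezh2 was 0.464, 0.450 and 0.471 in the mutant pools and 0.422, 0.467 and 0.464 in the wild-type pools, with overlapping groups.

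Levels between genes were compared per kilobase of annotated exon. Ezh2 was the highest of the 10, at 29.1 ± 2.3 CPM per kilobase in mutant and 31.97 ± 2.72 in wild-type heads (SD, n = 3 each), followed by Suz12 at 18.1 ± 1.0 and 19.5 ± 2.67. Kdm6a (11.0 in mutant, 12.1 in wild-type heads), Kmt2d (8.04 and 11.4) and Kmt2b (8.43 and 10.4) followed, with spreads that overlap in wild-type heads between Kmt2d and its neighbours. Kmt2a stood at 5.61 in mutant and 8.07 in wild-type heads, Kdm6b at 3.53 and 5.52, Kmt2c at 3.71 and 4.74, Setd1a at 3.86 and 4.73, and Setd1b, the lowest, at 1.22 and 1.79. By this length the neighbours Kmt2c and Setd1a did not differ beyond their spread in either genotype. Per kilobase of the longest transcript they stood further apart, Kmt2c at 5.03 and Setd1a at 4.04 in mutant heads. In wild-type heads they were then at 6.42 and 4.96. For Ezh2 all annotated exons together span 6678 bases but the longest transcript only 2787, so its level per kilobase depends on which length is used; it remains the highest with either.

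Most of these genes are long, and length went with the direction of change in these libraries. When the tested genes were divided by exon length into 5 classes of equal size, 6 of the regulators fell in the class of the longest genes, with 7594 bases and more: Kmt2c with 20291 bases, Kmt2d with 19931, Kmt2a with 16670, Setd1b with 12068, Kmt2b with 9596 and Kdm6a with 8383. In that class of 2801 genes 10.4% were called lower and 1.29% higher, and the median log2 fold change was -0.10; in the shortest class 1.07% were called lower and 3.07% higher, with a median of 0.07. Of the 6 regulators in the longest class 3 were called lower. Kdm6b (6954 bases), Setd1a (6795) and Ezh2 (6678) lay in the next class and Suz12 (4945) in the middle class. Every mutant pool lay below every wild-type pool in 27.8% of the genes of the longest class.

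**Figure D3:**
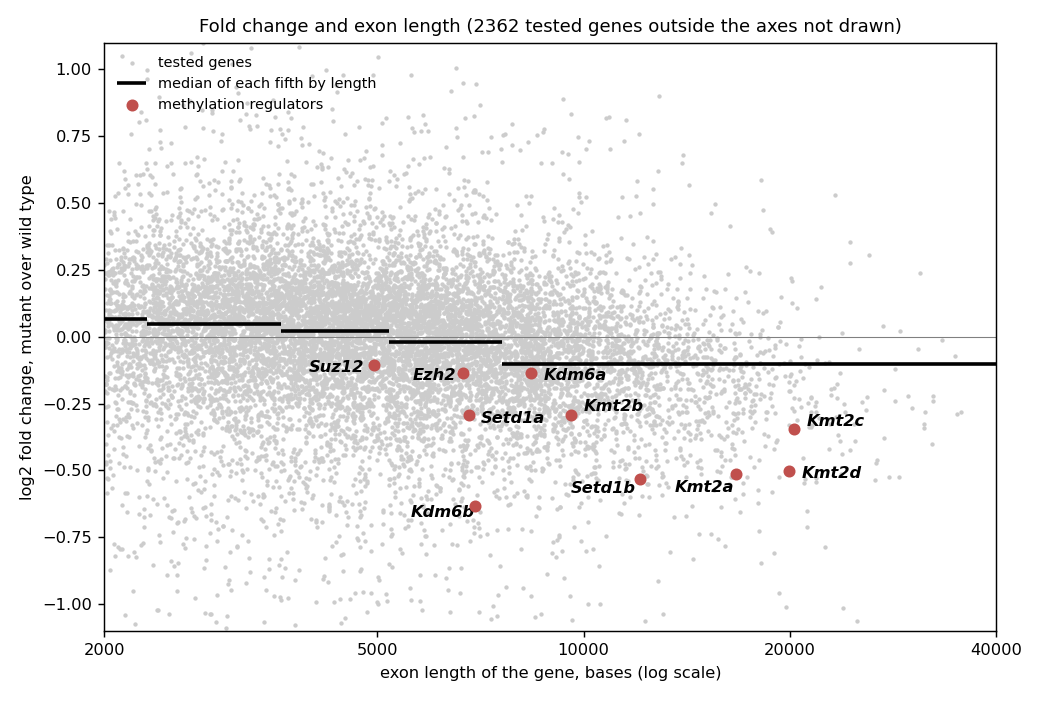
Log2 fold change of mutant over wild type against exon length on a log scale, for tested genes (grey) and the 10 regulators (red, named); black lines are the medians of 5 equal-sized classes by length, and 2362 genes outside the axes are not drawn. The class medians run from 0.07 in the shortest class to -0.10 in the longest, and all 10 regulators lie below the median of their own class.

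Base composition went with the change as well. Kdm6b (59.6% GC in its longest transcript), Kmt2b (59.1%), Setd1b (59.0%), Kmt2d (58.4%) and Setd1a (57.0%) lay in the most GC-rich of 5 classes, whereas Kdm6a (42.5%) and Suz12 (41.6%) lay in the least GC-rich. In the most GC-rich class 4.93% of genes were called lower, and 3 of these 5 regulators were. Among the 229 genes that were both in the longest and in the most GC-rich class, 21% were called lower and 0.873% higher, with a median log2 fold change of -0.20. Kmt2b, Kmt2d and Setd1b belong to these 229, and 2 of the 3 were called. Relative to each gene's wild-type mean, the 229 genes had a median deviation of -0.20, -0.17 and -0.22 on the log2 scale in the mutant pools and of 0.09, 0.06 and -0.15 in the wild-type pools. The 6 methylases had median deviations of -0.43, -0.30 and -0.61 in the mutant pools and of 0.05, 0.16 and -0.19 in the wild-type pools. In both sets wild-type replicate 3 lay on the side of the mutants.

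**Figure D4:**
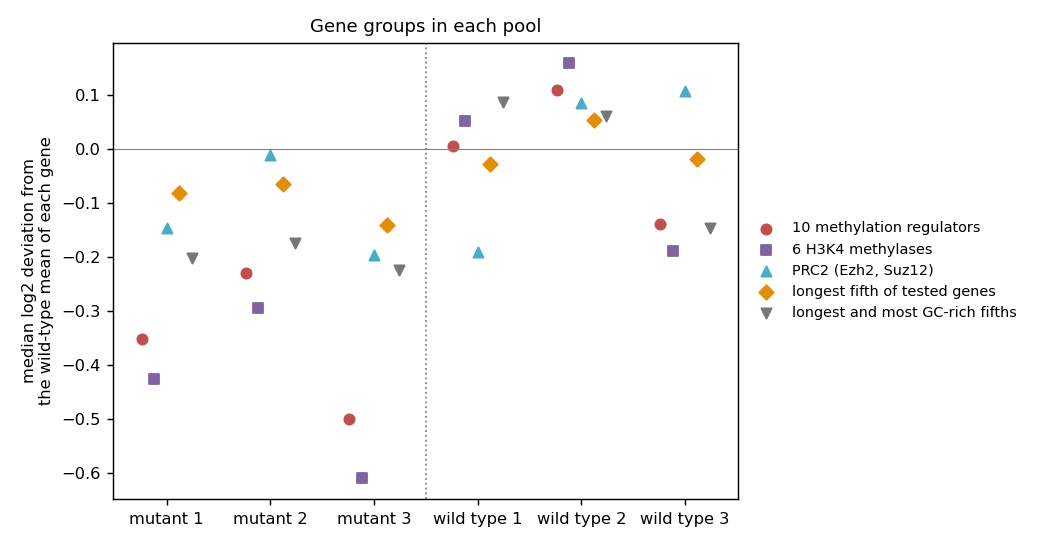
Median log2 deviation of 5 gene sets from each gene's wild-type mean, by pool, with mutant pools left of the dotted line. The H3K4 methylases range from -0.61 to -0.30 in the mutant pools and wild-type replicate 3 is at -0.19, while the 229 long, GC-rich genes move the same way over a smaller range.

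With the trend of each pool over exon length and GC content removed, 2 of the 10 remained past the threshold. Kdm6b was then at -0.51 (SE 0.101, adjusted p = 0.00389 by edgeR) and Kmt2a at -0.30 (SE 0.0797, adjusted p = 0.0264 by edgeR). Kmt2d was at -0.19 (adjusted p = 0.095 by edgeR) and Setd1b at -0.32 (adjusted p = 0.0871 by edgeR). The median of the 10 was -0.17, and all 10 values were still negative. Of the methylases that were not called either way, Kmt2c was at -0.12 with the trends removed and -0.35 with them, Kmt2b at -0.12 and -0.29, and Setd1a at -0.19 and -0.29. Ezh2 (-0.12), Kdm6a (-0.11) and Suz12 (-0.15) moved less. When length alone was removed, 3 of the 10 were called, and when GC content alone was removed, 5 were. The number of all tested genes called changed too. It was 543 lower without a correction, 536 lower with both trends removed and 782 lower with GC content alone removed. The counts of regulators are therefore not comparable between settings as results about these genes.

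**Figure D5:**
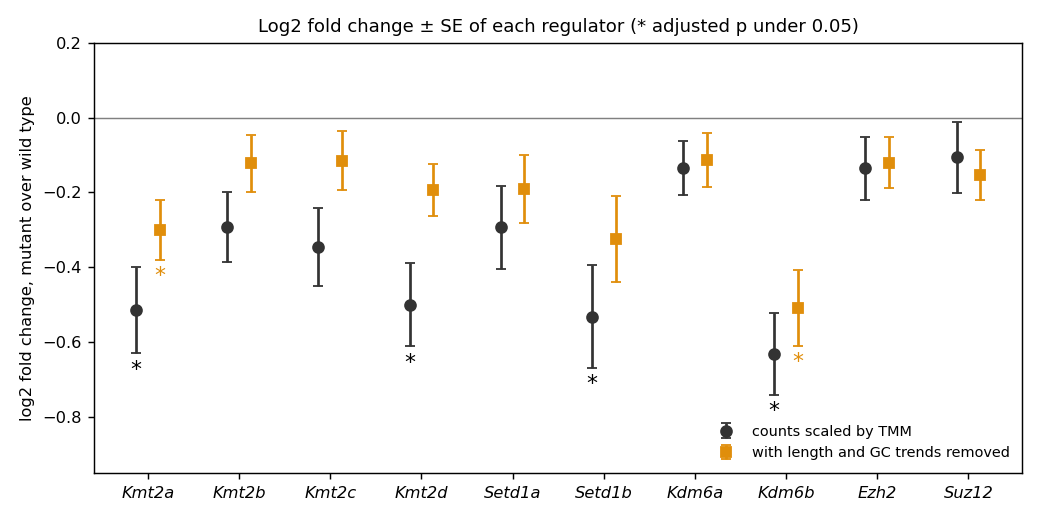
Log2 fold change of mutant over wild type with its SE for each regulator, from TMM-scaled counts (black circles) and with length and GC trends removed (orange squares); an asterisk marks an adjusted p under 0.05. The 4 marked black values run from -0.63 to -0.50; after the correction only Kmt2a and Kdm6b are marked.

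Other genes of these pathways, and enzymes of other histone lysines, were put on lists chosen with earlier results of these data known. The lists gave 4 further calls, all of lower genes: 1 in these pathways and 3 among the enzymes of other lysines. Over all tested genes 3.88% were called lower and 2.65% higher. Of 14 tested genes for shared subunits and cofactors of the H3K4 methylase complexes (COMPASS), Hcfc1 fell (-0.30, SE 0.0775, adjusted p = 0.033 by edgeR) and none rose. At an unadjusted p under 0.05, 4 were lower and 1 higher; DESeq2 and limma-voom each called 1 lower and 0 higher. HCFC1 is a scaffold of the SETD1 complexes. With the length and GC trends removed Hcfc1 was at -0.19 (adjusted p = 0.0909 by edgeR), and with length alone removed at -0.24 (adjusted p = 0.086 by edgeR). The call was also lost in the 4 pools with Y-linked reads (-0.23, adjusted p = 0.174 by edgeR), and without mutant replicate 1, mutant replicate 3 or wild-type replicate 2 (-0.29 to -0.26, adjusted p 0.087 to 0.212 by edgeR). The median of that list was -0.05, with 9 of the 14 tested genes negative and 5 positive. The core subunit gene Wdr5 was at 0.00 (adjusted p = 0.987 by edgeR) and Rbbp5 at 0.24 (adjusted p = 0.0734 by edgeR); they are named here after their values were seen. Pagr1a had 0 counts in every pool and was not tested.

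Of 12 genes for other PRC2 subunits and partners none was called in either direction by edgeR, DESeq2 or limma-voom; at an unadjusted p under 0.05, 0 were lower and 1 higher. The median was 0.05, and the smallest p values belonged to Lcorl (0.39, adjusted p = 0.111 by edgeR) and Phf1 (0.34, adjusted p = 0.392 by edgeR). Lcorl was called higher in 5 alternatives: with length and GC trends removed (0.48, adjusted p = 0.00146 by edgeR), with either alone removed, with Y-linked reads as a covariate and with no filter beyond 1 count (0.29 to 0.59, adjusted p 0.00486 to 0.0358 by edgeR). Of 20 PRC1 genes none was called by any of the 3 tools, with 2 lower and 1 higher at an unadjusted p under 0.05 and a median of -0.04. Rnf2, which encodes a ubiquitin ligase of PRC1, was at 0.33 (adjusted p = 0.11 by edgeR), and Pcgf6, a variant PRC1 subunit, at -0.20 (adjusted p = 0.184 by edgeR). Rnf2 was called higher in 5 alternatives: without wild-type replicate 3 (0.50, adjusted p = 0.00291 by edgeR), with length and GC trends removed (0.24, adjusted p = 0.0467 by edgeR), with GC content alone removed, with Y-linked reads as a covariate and with no filter beyond 1 count (0.28 to 0.34, adjusted p 0.00446 to 0.0239 by edgeR).

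Of 8 H3K4 demethylases and their corepressor partners none was called by any of the 3 tools, with 2 lower and 0 higher at an unadjusted p under 0.05 and a median of -0.09. Rcor2 was at -0.24 (adjusted p = 0.103 by edgeR) and the X-linked Kdm5c at -0.20 (adjusted p = 0.138 by edgeR), and Kdm5c was at -0.25 without wild-type replicate 3 (adjusted p = 0.0429 by edgeR). With Y-linked reads as a covariate Rcor2 was at -0.24 (adjusted p = 0.0189 by edgeR).

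Of 25 genes for methylases and demethylases of other histone lysines, 3 fell and none rose. Falls were called in 3.88% of all tested genes and in 10.4% of the longest class by exon length. At an unadjusted p under 0.05, 9 were lower and 0 higher; DESeq2 called 3 lower and limma-voom 2, and neither called any higher. The 3 genes called by edgeR were Dot1l (-0.49, SE 0.112, adjusted p = 0.0183 by edgeR), which methylates lysine 79 of H3, Nsd1 (-0.28, adjusted p = 0.0288 by edgeR), which methylates lysine 36, and Kdm3b (-0.26, adjusted p = 0.0452 by edgeR), a lysine 9 demethylase. The median of the list was -0.14, and 14 of the 25 lay in the longest class. Without mutant replicate 1, mutant replicate 3 or wild-type replicate 2 none of these 3 genes was called (adjusted p 0.0643 to 0.261 by edgeR), and without mutant replicate 2 only Dot1l was. With the length and GC trends removed Dot1l was still called (-0.35, adjusted p = 0.0247 by edgeR), whereas Nsd1 was at -0.08 (adjusted p = 0.452 by edgeR) and Kdm3b at -0.07 (adjusted p = 0.53 by edgeR). With length alone removed Nsd1 was at -0.09 (adjusted p = 0.492 by edgeR) and Kdm3b at -0.12 (adjusted p = 0.373 by edgeR). None of the 3 was called when only the 4 pools holding Y-linked reads were used (adjusted p 0.087 to 0.131 by edgeR). Kdm3b also missed the threshold by limma-voom (adjusted p = 0.06) and without robust estimation (adjusted p = 0.0563 by edgeR).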

How the data were processed

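The submitters' processing notes name the build mm10; the authors deposited raw counts per gene, 1 file per pool, while for the aligner, counter, annotation and strand setting nothing is stated in the sources used here. Of 54532 IDs, 54495 matched GENCODE M21, the source of symbols, exon lengths, GC content of the longest transcript and overlaps. Counts were filtered with filterByExpr, scaled by TMM factors and tested with edgeR 4.0.16 (glmQLFit, robust, and glmQLFTest, two-sided; limma 3.58.1, DESeq2 1.42.0 and R 4.3.3 served the alternatives). The SE is the size of the log2 fold change divided by the square root of F. For pool deviations 0.5 CPM was added before log2. The length and GC correction removed spline trends (4 degrees of freedom each) as an offset. The fit was first tested on simulated data, where 14 of 168 calls were false. It recovered 56.7% of simulated 1.5-fold changes, 80.6% of 2-fold and 93.9% of 4-fold changes. Nothing says that pools came from separate litters, so p-values measure the spread between these pools, which was 2.81 to 9.19 times the counting noise (chi-square over its degrees of freedom). The genes and lists were chosen with earlier results of these data known. Named genes are the 10 regulators, Sf3b4, Uty and, from each other list, up to 4 genes past the threshold or else the 2 with the smallest p, apart from those said to be named after their values were seen. The alternatives were other tools, scaling factors and filters, a fit without robust estimation, a replicate block, each pool left out, Y-linked reads, a threshold of 0.1 and the corrections; those for length alone and GC content alone were chosen after seeing the data.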

Additional observations from a re-analysis of the deposited data

How the results depend on the processing

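All 10 log2 fold changes stayed negative in each of the 20 alternatives tried, and none of the 10 genes was called higher in any. The alternatives refit the same pools, so the repeated sign is no further evidence. The number called lower, 4 as reported, was 2 with the length and GC correction and 1 when only the 4 pools holding Y-linked reads were used, and ran from 1 to 6 with 1 pool left out; it was 6 at a threshold of 0.1. The number of all tested genes called, 914 as reported, was 1658 with Y-linked reads as a covariate, 535 with those 4 pools alone, 1532 with the GC correction alone, and 230 to 1810 with 1 pool left out. The GC correction called 750 higher and 782 lower and the length and GC correction 647 higher and 536 lower, against 371 and 543. The cause was not tested. Same-numbered pools did not deviate together (correlations -0.161, 0.0515 and -0.0598), and those of different numbers ran from -0.208 to 0.274. With 3 pools a genotype, these correlations cannot tell whether the numbers pair the pools. With the replicate block 694 genes and 5 of the 10 were called, and Hcfc1, Nsd1 and Kdm3b were not (adjusted p 0.0516 to 0.0691 by edgeR). The median of the 10 was -0.17 with the length and GC correction and between -0.40 and -0.24 otherwise. Kmt2c, not called as reported, passed in 8 alternatives. The median of all tested genes moved by less than 0.1 on the log2 scale in every setting.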
